A study of Mus musculus with 6 samples.

Results

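The Kelch-like (Klhl) genes encode adaptors of the ubiquitin ligase built on cullin 3. Each protein joins a BTB domain, which binds cullin 3, to a propeller of kelch repeats, which holds the protein to be ubiquitinated, and the ligase is switched on when NEDD8 is attached to the cullin. Skeletal muscle is known for several members that are scarce in other tissues, among them *Klhl31*, *Klhl40* and *Klhl41*, and mutations of human KLHL40 and KLHL41 cause nemaline myopathy. The members were all genes of the table whose symbol is Klhl followed by a number. This pattern found 34 genes, and 3 more, *Klhl40*, *Klhl41* and *Klhl42*, were found by their Ensembl identifiers because the table lists them under the older symbols *Kbtbd5*, *Kbtbd10* and *Klhdc5*. These 37 genes of 37979 were followed in the gastrocnemius muscle (GAS) of the hindlimb, with 3 mice lacking Kvβ2 (KO) and 3 WT mice.

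The animals were untreated young males, 20 weeks of age, bred from parents that each carried 1 null allele of *Kcnab2*, so the KO mice lacked the gene in every tissue and the mouse strain was not given. Each mouse gave 1 library, with the replicate numbers 1, 7 and 8 in both genotypes. Levels were deposited as FPKM, which scale fragments to transcript length and to the mapped fragments of the library, and 3 values in a row stand for replicates 1, 7 and 8. The depth was estimated from the steps of low FPKM values as 20300000 to 21470000 fragments in the WT and 15140000 to 19320000 in the KO libraries, with all KO libraries below the WT libraries in depth. *Kcnab2* was at 0.233, 0.10 and 0.11 FPKM in WT muscle, at 0.0151 FPKM in KO replicate 7, and was listed at 0 in KO replicates 1 and 8. The tissue matched its label, with 12 of 14 skeletal muscle markers tested and their summed level at 31832 to 45770 FPKM in WT and 48337 to 52583 FPKM in KO muscle. *Myh4* and *Tnnt3* were listed at 0 in all 6 libraries, and *Ttn* in the 3 WT libraries, so a 0 in this table need not be a measured absence. WT replicate 8 stood apart, since its 6 slow fiber markers summed to 31.3 FPKM against 760 and 533 FPKM in WT replicates 1 and 7 and 282 to 1602 FPKM in KO muscle. Of 5 adipocyte markers, 3 were higher in KO muscle at an unadjusted p under 0.05 (background over all tested genes: 15.3%). *Adipoq* was at 40.4 FPKM in KO replicate 7 against 2.39 to 11.4 FPKM in the other libraries. *Plin1* was at 0.138 to 0.50 FPKM in WT and 1.14 to 7.37 FPKM in KO muscle, without overlap. *Cidec* was at 0.714 to 3.49 FPKM in WT and 4.25 to 24.5 FPKM in KO muscle, also without overlap (background: 18.3%). *Adipoq*, *Lep* and *Car3* overlapped between the genotypes. The summed level of the 5 adipocyte markers overlapped, at 1236 to 1597 FPKM in WT and 1281 to 1632 FPKM in KO muscle. *Car3* made up most of this sum and had a log2 fold change of -0.036, so the sum says little about the other markers. The part of these differences in the results was not tested, and in whole muscle fewer cells of a type cannot be told apart from less RNA per cell.

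The family spanned a wide range of levels in GAS muscle. *Klhl41*, whose product sits at the sarcomere and keeps nebulin stable, was far above the rest with 220 to 272 FPKM, and by itself made up 46.6% to 53.2% of the summed Klhl level in each library. *Klhl31* was next at 36.6 to 76.8 FPKM, then *Klhl21* at 25.3 to 44.7 FPKM and *Klhl40* at 14.2 to 35.6 FPKM. *Klhl31* lay above *Klhl21* in 5 of 6 libraries, and *Klhl40* lay above the next gene, *Klhl24*, in 4 of 6, so these neighbours did not keep a fixed order. *Klhl41*, *Klhl31*, *Klhl40* and *Klhl33* together held 66.0% to 70.7% of the summed level, which itself was 488 to 543 FPKM in WT and 469 to 560 FPKM in KO muscle. In all, 10 members had a mean of at least 10 FPKM and 19 a mean of at least 2 FPKM.

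**Figure D1:**
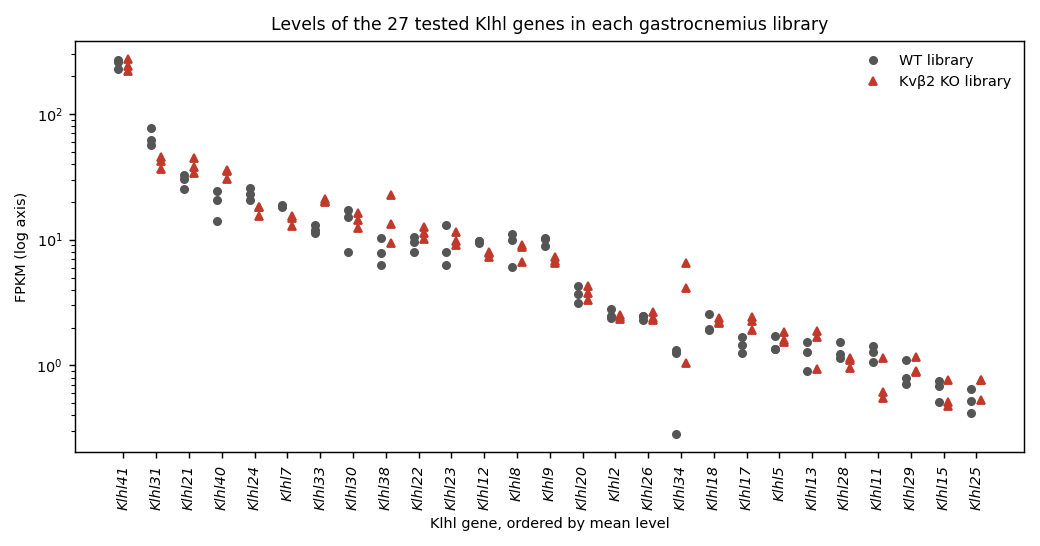
FPKM (log axis) of the 27 Klhl genes averaging 0.5 FPKM or more, 1 point per library, with circles for the 3 WT and triangles for the 3 KO libraries, ordered by mean level. *Klhl41* stands above all others at 220 to 272 FPKM, and the circles and triangles of *Klhl33* and *Klhl31* do not overlap.

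At the other end, 10 members had a mean under 0.5 FPKM and were not tested. The highest of these was *Klhl6*, a gene known from B cells, with 0.222 to 0.602 FPKM over the 6 libraries. *Klhl4* and *Klhl42* were of the same order, with means of 0.409 and 0.395 FPKM. The testis gene *Klhl10*, *Klhl36* and *Klhl3*, an adaptor for WNK kinases in the kidney, were lower still, with means from 0.108 to 0.184 FPKM. The KO values were all above the WT values for these 3 of the 9 untested members with a value above 0 (background over such genes: 5.89%), and none of them was tested. That background includes genes listed at 0 in a KO library, which cannot have all KO values above all WT values. The WT values went down to 0.0161 FPKM for *Klhl3* and 0.0261 FPKM for *Klhl10*, which is close to single fragments. The other 4, *Klhl1*, *Klhl14*, *Klhl32* and *Klhl35*, never reached 0.1 FPKM, and *Klhl1*, a gene of neurons, was listed at 0 in every library.

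The genotypes were compared with limma, fitted to log2(FPKM + 0.1) of the 12334 genes averaging 0.5 FPKM or more and adjusted by Benjamini-Hochberg over all of these, so log2 fold changes are KO minus WT on that scale and understate the change of low genes. Among the 27 tested members, 1 gene rose in KO muscle at an adjusted p under 0.05 (background over all tested genes: 0.251%), and 0 fell (background: 0.073%). At an unadjusted p under 0.05, 6 members were higher in KO muscle, or 22.2% of those tested, against a background of 15.3% of all tested genes. Another 5 were lower, or 18.5%, against a background of 10.9%. The KO values were all above the WT values for 4 members (background: 18.3%) and below them for 6 (background: 16.2%). The median log2 fold change was 0.078 over the 27 members and 0.010 over all tested genes, and 16 of the 27 were above 0 (background: 51%). Over all tested genes, 31 were called higher and 9 lower, and 11 and 7 after quantile normalization.

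*Klhl33* was the member that rose. It encodes a kelch protein with little known function and spans 50888582 to 50897507 of chromosome 14 (GRCm38, minus strand), with 4 annotated transcripts. It was at 11.4, 11.9 and 13.2 FPKM in WT and at 19.9, 21.2 and 20.4 FPKM in KO muscle. The genotypes were far apart, and the spread within each was small, with 12.1 ± 0.922 FPKM (SD, n = 3) for WT and 20.5 ± 0.674 FPKM (SD, n = 3) for KO muscle. The log2 fold change was 0.75 (limma, standard error 0.11, 95% interval 0.50 to 1.00, adjusted p = 0.0493), and an exact permutation test, two-sided, gave p = 0.1, which is the lowest value possible with 3 mice per genotype. The call was close to its threshold, and it was lost with each library left out in turn, although the log2 fold change stayed between 0.70 and 0.81 and the adjusted p ranged from 0.0545 to 0.235.

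*Klhl31*, which was first described as a muscle gene and is required for muscle growth after birth in mice, went the other way. It lies on the plus strand of chromosome 9, 77636500 to 77660127, with 1 annotated transcript. It was at 62.5, 76.8 and 56.7 FPKM in WT and at 42.3, 36.6 and 45.1 FPKM in KO muscle. The highest KO library was under the lowest WT library, with means of 65.3 ± 10.3 FPKM (SD, n = 3) for WT and 41.3 ± 4.34 FPKM (SD, n = 3) for KO muscle. The log2 fold change was -0.65 (limma, standard error 0.14, unadjusted p = 0.00238, adjusted p = 0.0750), which did not pass the threshold over all genes. With each library left out it ranged from -0.75 to -0.53.

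*Klhl40*, whose product stabilizes nebulin and leiomodin 3 in the thin filament, lies on the plus strand of chromosome 9 as well, 121777607 to 121783818. It was at 14.2, 20.7 and 24.6 FPKM in WT and at 30.6, 35.3 and 35.6 FPKM in KO muscle. All KO libraries were above all WT libraries, but the WT libraries differed among themselves, with 19.8 ± 5.28 FPKM (SD, n = 3) for WT and 33.8 ± 2.82 FPKM (SD, n = 3) for KO muscle. The log2 fold change was 0.80 (limma, standard error 0.20, adjusted p = 0.0826) and did not pass the threshold.

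*Klhl41* (chromosome 2, 69670120 to 69684230, plus strand), the close relative of *Klhl40*, had overlapping genotypes. Its level was 268, 261 and 227 FPKM in WT and at 220, 240 and 272 FPKM in KO muscle. Its means were 252 ± 21.5 FPKM (SD, n = 3) and 244 ± 26.0 FPKM (SD, n = 3), with a log2 fold change of -0.05 (limma, standard error 0.12, 95% interval -0.33 to 0.24, adjusted p = 0.831).

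**Figure D2:**
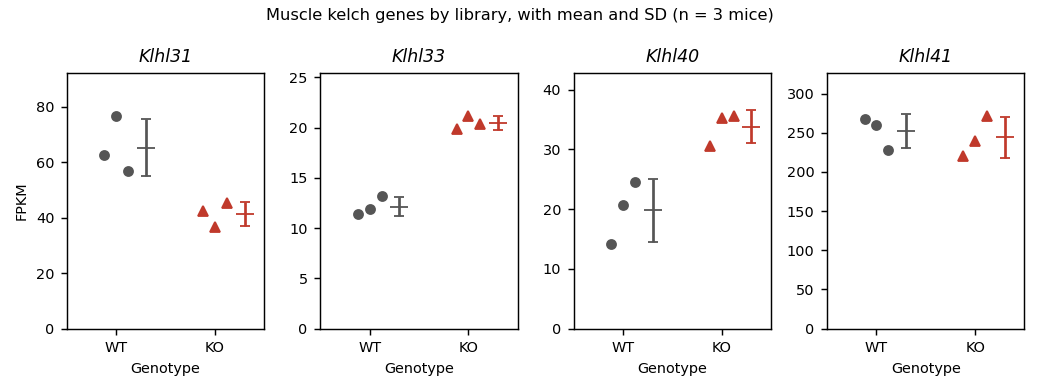
FPKM of 4 muscle Klhl genes in each library, with circles for WT and triangles for KO and, beside them, the mean and SD of 3 mice. The KO libraries of *Klhl33* (19.9 to 21.2) and *Klhl40* (30.6 to 35.6) lie above the WT libraries, those of *Klhl31* (36.6 to 45.1) lie below, and *Klhl41* overlaps.

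Ratios within a library do not depend on a common scaling of its genes, though they do depend on trends with base composition. *Klhl33* was at 0.182, 0.155 and 0.232 of the level of *Klhl31* in WT and at 0.469, 0.579 and 0.451 of it in KO muscle. *Klhl40* was at 0.0528 to 0.108 of the level of *Klhl41* in WT and at 0.131 to 0.147 in KO muscle. Neither ratio overlapped between the genotypes. *Klhl40* has 60.2% GC and *Klhl41* 45.0%, and after correction for GC content their log2 fold changes were nearly equal, at 0.18 and 0.17, while *Klhl33* and *Klhl31* had 0.63 and -0.45. These pairs were picked with the values known, so the ratios are a description.

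**Figure D3:**
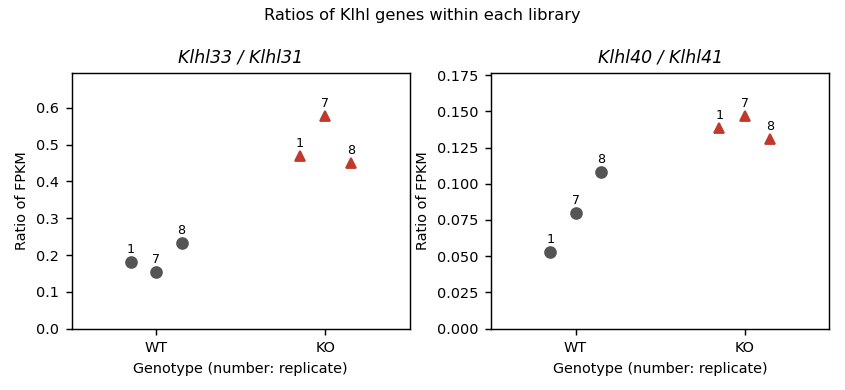
Ratio of the FPKM of *Klhl33* to *Klhl31* (left) and of *Klhl40* to *Klhl41* (right) in each library, with circles for WT and triangles for KO and the replicate number at each point. The highest WT ratios (0.232 and 0.108) lie under the lowest KO ratios (0.451 and 0.131).

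The sequence before the start of the gene is shown for *Klhl33*, the member that rose, and for its relatives *Klhl40* and *Klhl41*, which act on the thin filament. RefSeq's table for GRCm38.p6 held a start for 31 of the 37 members. The 226 bases printed run from 250 to 25 bases ahead of the start, on the strand of the gene, and E-box letters (CANNTG, the core that myogenic factors of the MyoD family bind) are in capitals. The windows are chr14:50897508-50897733 on the minus strand for *Klhl33*, chr9:121777357-121777582 on the plus strand for *Klhl40* and chr2:69669870-69670095 on the plus strand for *Klhl41*.
Klhl33: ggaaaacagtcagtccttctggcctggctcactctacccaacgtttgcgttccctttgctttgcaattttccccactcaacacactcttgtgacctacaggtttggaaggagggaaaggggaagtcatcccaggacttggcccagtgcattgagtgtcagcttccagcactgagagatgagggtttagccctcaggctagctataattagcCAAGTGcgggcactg
Klhl40: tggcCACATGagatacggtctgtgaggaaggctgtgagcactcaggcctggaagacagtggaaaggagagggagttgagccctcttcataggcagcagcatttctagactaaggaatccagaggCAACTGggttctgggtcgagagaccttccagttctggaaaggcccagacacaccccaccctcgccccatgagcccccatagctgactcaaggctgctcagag
Klhl41: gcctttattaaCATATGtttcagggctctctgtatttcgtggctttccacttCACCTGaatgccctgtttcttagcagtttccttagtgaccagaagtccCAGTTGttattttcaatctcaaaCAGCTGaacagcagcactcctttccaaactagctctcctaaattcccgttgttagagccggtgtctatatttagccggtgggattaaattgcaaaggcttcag
*Klhl33* held 1 E-box, *Klhl40* held 2 and *Klhl41* held 4, 1 of which reads CAGCTG. Of the 32851 windows of this length in the table, 62.9% held an E-box and 11.7% held CAGCTG. A MEF2 consensus lay 50 bases before the start of *Klhl33* and 63 bases before that of *Klhl41*, beside no match in *Klhl40*, and 2.66% of all windows held 1. The CArG consensus of serum response factor, the MCAT element with the letters CATTCC, the TATA box with the letters TATAAA and the GC box with the letters GGGCGG were not found in the 3 windows, on either strand. Of all windows, 1.34% held the CArG consensus, 11.7% the MCAT element, 11.0% the TATA box and 29.3% the GC box. CAGCTG is also an E-box by its letters, and no other matches overlapped.

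Of the 7 members that were listed as muscle kelch genes, 5 had an unadjusted p under 0.05 (background: 26.2%), 4 higher (background: 15.3%) and 1 lower (background: 10.9%) in KO muscle, and their median log2 fold change was 0.75, against 0.033 for the 20 other tested members. After correction for GC content the medians were 0.18 and -0.054, and 1 muscle gene was higher and 1 lower at an unadjusted p under 0.05 (background: 5.33% and 5.4%). The median GC content was 53.6% for the muscle genes and 45.3% for the other members. The list was drawn up with earlier results of these data known. Beside it, 6 of the 12 tested skeletal muscle markers were higher in all KO than in all WT libraries (background: 18.3%), *Ttn* among them. *Ttn* was listed at 0 in all WT libraries and passed the filter only through its KO values. Its place in this count therefore need not be a measured change. Another 2 of the markers, *Pvalb* and *Casq1*, had log2 fold changes of -0.15 and -0.17. *Acta1* was at 5029 to 9656 FPKM in WT and 12044 to 13917 FPKM in KO muscle. *Ckm* was at 2675 to 6307 FPKM in WT and 7203 to 7971 FPKM in KO muscle. After correction for GC content the log2 fold change of *Acta1* went from 0.83 to 0.34 and that of *Ckm* from 0.81 to 0.40. The part of the markers in the kelch values was not tested. *Klhl38* was at 6.24, 10.3 and 7.77 FPKM in WT and at 9.36, 13.4 and 22.7 FPKM in KO muscle. WT replicate 7 lay above KO replicate 1, and the log2 fold change of 0.83 (limma, standard error 0.32, adjusted p = 0.165) was 0.49 without KO replicate 8. *Klhl30* was at 7.97, 15.2 and 17.3 FPKM in WT and at 12.4, 16.4 and 14.4 FPKM in KO GAS, giving a log2 fold change of 0.16 (limma, 95% interval -0.50 to 0.81).

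*Klhl34*, a gene with 1 annotated transcript on the X chromosome, had the widest spread of the tested members. It was at 1.33, 1.26 and 0.286 FPKM in WT and at 1.05, 6.51 and 4.11 FPKM in KO muscle, which stand for about 49, 46 and 11 fragments in WT and 28, 224 and 118 fragments in KO muscle. KO replicate 1 lay among the WT libraries, and only KO replicates 7 and 8 were high. The log2 fold change of 1.81 (limma, standard error 0.73, adjusted p = 0.174) was 1.19 without WT replicate 8, 1.28 without KO replicate 7 and 2.54 without KO replicate 1. KO replicates 7 and 8 also had the highest slow fiber marker sums, 933 and 1602 FPKM, and WT replicate 8 the lowest, 31.3 FPKM. The part of fiber type in *Klhl34* was not tested.

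The members named in cell division were mixed. *Klhl21*, which brings Aurora B to the spindle midzone and was the third most abundant member, was at 25.3, 32.8 and 30.3 FPKM in WT and at 34.1, 38.1 and 44.7 FPKM in KO muscle. The genotypes did not overlap, with a log2 fold change of 0.40 (limma, standard error 0.15, adjusted p = 0.149) that turned to -0.18 after the correction for GC content that is described with base composition. *Klhl21* lies on chromosome 4, 152008803 to 152017680, and is 373 kilobases from the targeted gene *Kcnab2*, which starts at 152390742. *Klhl9*, which acts on the same kinase, went the other way, at 10.4, 10.2 and 8.97 FPKM in WT and at 6.78, 6.52 and 7.28 FPKM in KO muscle, without overlap and with a log2 fold change of -0.51 (limma, standard error 0.11, adjusted p = 0.0750). Its close paralog *Klhl13* was at 0.902 to 1.52 FPKM in WT and at 0.942 to 1.88 FPKM in KO muscle, and the genotypes overlapped. *Klhl22*, an adaptor for PLK1 and DEPDC5, was at 8.05 to 10.4 FPKM in WT and 10.04 to 12.6 FPKM in KO GAS, giving a log2 fold change of 0.27 (limma, 95% interval -0.07 to 0.60). *Klhl18* was at 1.91 to 2.57 FPKM in WT and at 2.18 to 2.37 FPKM in KO GAS, giving a log2 fold change of 0.08 (limma, 95% interval -0.31 to 0.46).

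*Klhl24*, *Klhl7* and *Klhl12*, found in many tissues, had lower levels in KO muscle without passing the threshold. *Klhl24*, whose product controls the turnover of intermediate filament proteins, was at 20.8, 25.98 and 23.3 FPKM in WT and at 18.3, 15.4 and 18.3 FPKM in KO GAS, for a log2 fold change of -0.43 (limma, standard error 0.13, adjusted p = 0.106). *Klhl7*, mutated in a form of retinitis pigmentosa, was at 18.7, 18.5 and 18.1 FPKM in WT and at 15.6, 12.9 and 14.9 FPKM in KO GAS, for a log2 fold change of -0.35 (limma, standard error 0.11, adjusted p = 0.115). *Klhl12*, which acts on Dishevelled and on the COPII coat protein SEC31, was at 9.79, 9.48 and 9.81 FPKM in WT and at 7.98, 7.24 and 7.85 FPKM in KO GAS, for a log2 fold change of -0.33 (limma, standard error 0.10, adjusted p = 0.111). The WT libraries of *Klhl7* and *Klhl12* were nearly equal, and for all of these genes the KO libraries lay under the WT libraries. After correction for GC content the log2 fold changes were -0.16 for *Klhl24*, -0.043 for *Klhl7* and -0.12 for *Klhl12*, with unadjusted p = 0.236, 0.659 and 0.263 in limma. *Klhl28* did not overlap either, at 1.15 to 1.55 FPKM in WT and 0.955 to 1.14 FPKM in KO muscle, but its log2 fold change of -0.27 had a 95% interval of -0.75 to 0.21 and turned to 0.14 after correction for GC content. *Klhl17*, an actin-binding member also called actinfilin, was higher, at 1.25, 1.68 and 1.46 FPKM in WT and at 1.89, 2.44 and 2.26 FPKM in KO muscle, without overlap and with a log2 fold change of 0.55 (limma, standard error 0.18, adjusted p = 0.124).

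The other members with a mean of at least 2 FPKM overlapped between the genotypes. *Klhl8*, an adaptor for rapsyn at the neuromuscular junction, was at 6.05 to 11.04 FPKM in WT and 6.62 to 9.10 FPKM in KO muscle, with a 95% interval of the log2 fold change of -0.68 to 0.45. *Klhl23* was at 6.33 to 13.1 FPKM in WT and 9.02 to 11.4 FPKM in KO muscle (-0.40 to 0.78). *Klhl20*, an adaptor for DAPK1 and PML, was at 3.14 to 4.28 FPKM in WT and 3.34 to 4.29 FPKM in KO muscle (-0.34 to 0.41). *Klhl2*, an adaptor for WNK kinases, was at 2.37 to 2.79 FPKM in WT and 2.35 to 2.50 FPKM in KO muscle (-0.38 to 0.26). *Klhl26* was at 2.28 to 2.46 FPKM in WT and 2.30 to 2.68 FPKM in KO muscle (-0.29 to 0.35). For these genes a change of the size seen for *Klhl33* lay outside the interval for *Klhl8*, *Klhl20*, *Klhl2* and *Klhl26*, and inside it for *Klhl23*. The remaining 6 tested members, *Klhl5*, *Klhl11*, *Klhl13*, *Klhl15*, *Klhl25* and *Klhl29*, had means of 0.608 to 1.57 FPKM and overlapped as well.

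**Figure D4:**
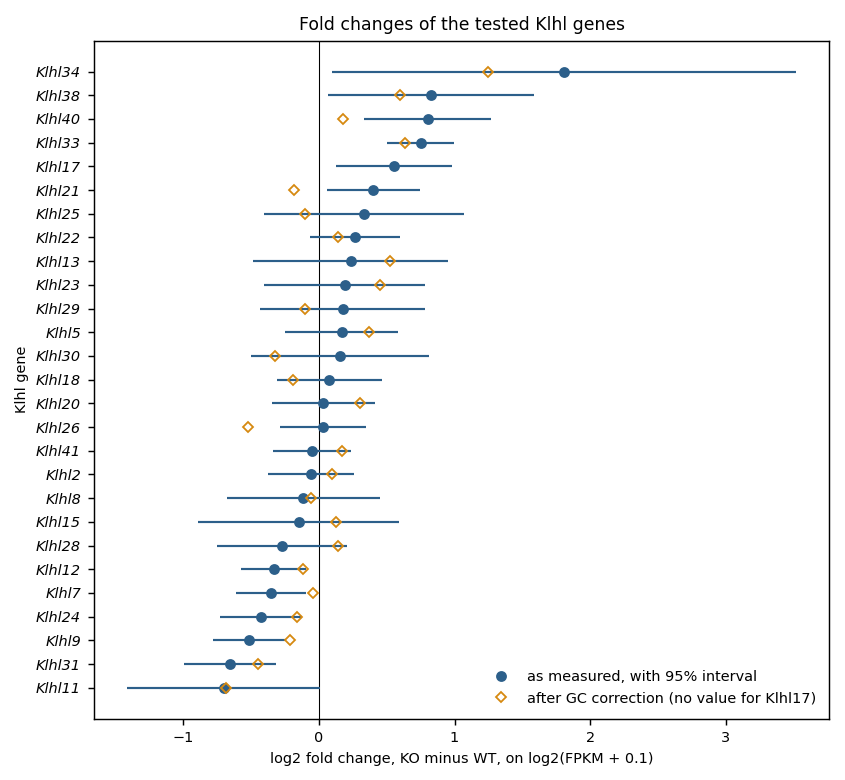
Log2 fold change (KO minus WT, on log2(FPKM + 0.1)) of the 27 tested Klhl genes, with filled circles and lines for the value as measured and its 95% interval from limma, and open diamonds for the value after correction for GC content. *Klhl33* keeps 0.63 of its 0.75 after the correction, while *Klhl40* goes from 0.80 to 0.18 and *Klhl21* from 0.40 to -0.18.

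The direction of the members tended to go with the base composition of their transcripts, with exceptions. *Klhl5*, *Klhl13*, *Klhl20* and *Klhl23*, at 42.8% to 45.3% GC, had log2 fold changes of 0.03 to 0.24. Of the 10 members with an unadjusted p under 0.05 and a known GC content, the 5 that were lower in KO muscle had 42.0% to 45.2% GC and the 5 that were higher had 52.1% to 60.2% GC. Across the 26 tested members with a known GC content, the log2 fold change was higher at higher GC content (Spearman's rho = 0.62, Pearson's r = 0.63), and it did so across all 11985 such genes (Spearman's rho = 0.70, Pearson's r = 0.43). The genes share the same 6 libraries and are not independent, so these are descriptions. The trend runs with genotype, its origin was not tested, and the correction takes it out whatever its origin. After each library was corrected for its trend on GC content, 1 member was higher at an unadjusted p under 0.05 (background: 5.33%), 2 were lower (background: 5.4%) and 0 had an adjusted p under 0.05 (background: 0.0501% higher, 0.0668% lower and 0.117% in either direction). *Klhl33* kept a log2 fold change of 0.63 (limma, standard error 0.10, unadjusted p = 0.000287, adjusted p = 0.149), and *Klhl31* one of -0.45 (limma, standard error 0.12, unadjusted p = 0.00724, adjusted p = 0.311). *Klhl40* had 0.18 (limma, standard error 0.14) and *Klhl9* -0.21 (limma, standard error 0.096). *Klhl26*, at 58.6% GC, was flat as measured and had a log2 fold change of -0.52 (limma, unadjusted p = 0.00738, adjusted p = 0.312) after the correction. *Klhl17* could not be corrected, since its identifier was not in the annotation.

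**Figure D5:**
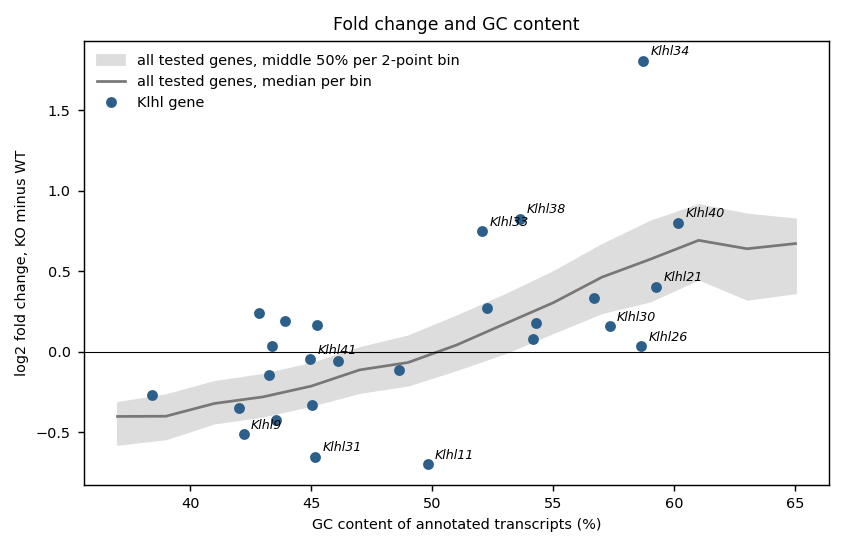
Log2 fold change (KO minus WT) against the GC content of annotated transcripts in percent for 26 Klhl genes (points), over the median (line) and middle 50% (band) of all tested genes in bins of 2 percentage points from 36% to 66% GC. Of these genes 11 lie inside the band, 8 above it, *Klhl33*, *Klhl38* and *Klhl34* among them, and 7 below it, *Klhl31*, *Klhl11* and *Klhl26* among them.

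The partners of the Klhl proteins in the ligase were looked at through lists drawn up with earlier results of these data known. Of 13 genes of the cullin 3 core and its NEDD8 pathway, all tested, 0 had an adjusted p under 0.05, and at an unadjusted p under 0.05, 3 were lower and 1 was higher (background: 10.9% and 15.3%). Their median log2 fold change was -0.22. *Cul3*, the scaffold, was at 142, 139 and 142 FPKM in WT and at 140, 92.2 and 110 FPKM in KO muscle, so KO replicate 1 lay with the WT libraries, and the log2 fold change was -0.33 (limma, standard error 0.16, adjusted p = 0.226). *Rbx1*, the RING subunit, had a log2 fold change of -0.22 (limma, standard error 0.12, adjusted p = 0.272). *Uba3*, the catalytic subunit of the NEDD8-activating enzyme, was at 19.4 to 21.02 FPKM in WT and 12.8 to 16.02 FPKM in KO muscle (log2 fold change -0.46, limma, adjusted p = 0.0875). *Dcun1d1*, which helps NEDD8 onto cullins, was at 14.2 to 18.4 FPKM in WT and 10.3 to 13.1 FPKM in KO muscle (log2 fold change -0.51, limma, adjusted p = 0.0965). After correction for GC content these were 0.064 for *Cul3*, -0.062 for *Rbx1*, -0.10 for *Uba3* and -0.12 for *Dcun1d1*.

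Of 11 genes of the COP9 signalosome, which takes NEDD8 off cullins, with *Senp8* added, 2 were lower and 0 higher at an unadjusted p under 0.05 (background: 10.9% and 15.3%), and 0 passed the adjusted threshold. *Cops5*, the catalytic subunit, was at 77.2 to 83.9 FPKM in WT and 59.5 to 71.9 FPKM in KO muscle (log2 fold change -0.27, limma, adjusted p = 0.174). *Senp8*, a protease for NEDD8, was at 2.07 to 2.18 FPKM in WT and 1.47 to 1.60 FPKM in KO muscle (log2 fold change -0.46, limma, adjusted p = 0.118). After correction for GC content *Cops5* had -0.18 and *Senp8* -0.10. Of 14 other BTB-kelch genes outside the Klhl names, 11 were tested, 3 were lower and 1 higher at an unadjusted p under 0.05 (background: 10.9% and 15.3%), and 0 passed the adjusted threshold. *Keap1*, the adaptor for NRF2, was at 9.29, 10.5 and 11.5 FPKM in WT and at 13.4, 14.4 and 14.1 FPKM in KO muscle (log2 fold change 0.42, limma, adjusted p = 0.0956). *Kbtbd2*, an adaptor for a regulatory subunit of PI3K, was at 6.87 to 7.15 FPKM in WT and 4.68 to 4.98 FPKM in KO muscle (log2 fold change -0.54, limma, adjusted p = 0.0700). *Kbtbd3* was at 2.84 to 3.47 FPKM in WT and 1.87 to 1.98 FPKM in KO muscle (log2 fold change -0.67, limma, adjusted p = 0.0708). After correction for GC content *Keap1* had -0.17, *Kbtbd2* -0.31 and *Kbtbd3* -0.25. Among 19 other BTB adaptors of cullin 3, *Btbd2* rose in KO muscle, from 3.11, 3.20 and 4.22 FPKM to 7.99, 9.38 and 7.004 FPKM in replicates 1, 7 and 8 (log2 fold change 1.19, limma, standard error 0.17, adjusted p = 0.0493), or 0.53 on the log2 scale with GC-corrected values. The call was kept in 2 of 19 alternative fits. At an unadjusted p under 0.05, 3 of these adaptors were higher and 3 lower (background: 15.3% and 10.9%).

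Proteins that the Klhl adaptors are known to bind were listed too, with 23 genes, 21 tested entries and 0 at an adjusted p under 0.05. At an unadjusted p under 0.05, 8 entries were higher and 0 lower (background: 15.3% and 10.9%), with a median log2 fold change of 0.34. With GC-corrected values 3 were higher and 0 lower (background: 5.33% and 5.4%), with a median of 0.15. *Flnc*, filamin C, is a known target of KLHL31. It was at 22.03, 32.1 and 26.7 FPKM in WT and at 43.0, 67.2 and 59.7 FPKM in KO muscle, without overlap. These are RNA levels, and a relation to the level of *Klhl31* was not tested. Its log2 fold change was 1.06 (limma, standard error 0.20, adjusted p = 0.0673), and 0.52 after correction for GC content. The RNA levels of the thin filament proteins held by KLHL40 and KLHL41 did not separate the genotypes, and protein was not measured. *Neb*, nebulin, was at 1888 to 2131 FPKM in WT and 1541 to 2118 FPKM in KO muscle (log2 fold change -0.10, limma, adjusted p = 0.676), and *Lmod3*, leiomodin 3, was at 36.5 to 52.5 FPKM in WT and 46.4 to 54.4 FPKM in KO muscle (log2 fold change 0.21, limma, adjusted p = 0.404). *Tfdp1*, the cell cycle partner of KLHL40, had a log2 fold change of 0.064 (limma, adjusted p = 0.858). *Nrap*, the gene of the nebulin-related anchoring protein, has 2 entries in the table. Their log2 fold changes were 0.86 (limma, adjusted p = 0.198) and 0.47 (limma, adjusted p = 0.170), and how fragments were split between them is not known.

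The members lay on 16 chromosomes, and 36 of 37 were found in the annotation. *Klhl10* and *Klhl11* were the closest pair, 5.59 kilobases apart on chromosome 11, with means of 0.108 and 1.01 FPKM. *Klhl41* and *Klhl23* were 138 kilobases apart on chromosome 2, at means of 248 and 9.59 FPKM, and *Klhl6* and *Klhl24* were 115 kilobases apart on chromosome 16, at means of 0.459 and 20.3 FPKM. The genes within each of these pairs differed widely in level, and they were not compared with pairs further apart. The 4 members on the X chromosome, *Klhl4*, *Klhl13*, *Klhl15* and *Klhl34*, all had means of 2.42 FPKM or less. That is the mean of *Klhl34*, which ranked 18 among the 37 members, so such levels were common in the family. Several members overlap annotated genes on the other strand, *Klhl9*, *Klhl21*, *Klhl38* and *Klhl40* among them. The library kit kept strand, but whether the FPKM used it is not stated, so fragments of such pairs may be shared. Other members, *Klhl2*, *Klhl5*, *Klhl7* and *Klhl8* among them, overlap an annotated gene on the same strand, where strand cannot separate the fragments.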

How the data were processed

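The authors mapped reads of 6 stranded mRNA libraries to GRCm38 with TopHat and deposited the FPKM of Cufflinks for 37979 genes, 1 library per mouse. Tool versions are not given in the sources used here, and reads and counts were not used. Gene coordinates, lengths and GC content came from GENCODE vM21 (GRCm38), which held 32916 of the identifiers. The members and gene lists were chosen with earlier results of these data known. The genes named are *Kcnab2*, members averaging 2 FPKM or more, or with an unadjusted p under 0.05 or no overlap between the genotypes, and listed partners. The 2 ligase genes with the lowest p in each list were added. Genotypes were compared in limma 3.58.1 (R 4.3.3), fitted to log2(FPKM + 0.1) with a variance trend, for the 12334 genes averaging 0.5 FPKM or more, with Benjamini-Hochberg adjustment, and by exact permutation tests. The fit was checked on simulated data with independent noise per gene and changes larger than those of the members. This check does not speak to smaller changes or to the trend on GC content. Separate mice are the replicates. For depth, low FPKM values of genes with 1 transcript were fitted to steps of whole fragments, and 87.3% to 93.4% lay within 0.15 of a whole fragment. One fragment per kilobase is then worth 0.0466 to 0.0661 FPKM. For the GC correction, a loess curve of span 0.3 of each library's deviation against GC content was subtracted. Alternatives covered the pseudocount, filter, scaling, variance trend, length, GC content, a block on the replicate number and each library left out. Figures were drawn with matplotlib 3.10.9.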

Additional observations from a re-analysis of the deposited data

How the results depend on the processing

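The 40 genes called over all tested genes became 11 with a pseudocount of 1, 22 with a filter of 0.1 FPKM, 20 without a filter, 1 without genes listed at 0, 18 after quantile normalization, 19 without a variance trend, 14 after GC correction, 19 after length correction, 13 with the replicate block and 12 with the block and GC correction. Leaving out each library gave 11 to 38. The 1 called member, *Klhl33*, stayed called with a pseudocount of 0.01 or a filter of 2 FPKM, and the number of called members was 0 in the other 17 fits, each library left out included (0 to 0). Its log2 fold change ranged from 0.63 to 0.81. The 11 members at an unadjusted p under 0.05 became 3 after GC correction and 4 with the block and GC correction, and 7 to 12 with a library left out, 7 without KO replicate 7 or 8. The median of the members was -0.015 after quantile normalization and ranged from -0.0018 without WT replicate 1 to 0.12 without WT replicate 8. The cause was not tested. The correlations of same-numbered deviations were -0.025, -0.080 and 0.034. With so few libraries these cannot show whether same-numbered mice were paired by litter or handling. The block left *Klhl33* at 0.75 (limma, adjusted p = 0.111). It lowered the standard error of *Klhl40* from 0.20 to 0.15 (limma, adjusted p = 0.120) and raised that of *Klhl31* from 0.14 to 0.17.

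Direction changed only for genes that were not called. GC correction, with and without the block, gave 0.17 for *Klhl41*, -0.32 for *Klhl30*, 0.098 for *Klhl2*, -0.19 for *Klhl18*, -0.52 for *Klhl26*, -0.18 for *Klhl21*, 0.14 for *Klhl28*, 0.064 for *Cul3*, -0.17 for *Keap1* and 0.025 for *Neb*. Median scaling gave -0.015 for *Klhl20* and -0.016 for *Klhl26*, quantile normalization -0.037 for *Klhl20*, -0.015 for *Klhl18* and -0.045 for *Klhl26*, and length correction -0.070 for *Klhl26* and -0.020 for *Tfdp1*. Leaving out a library turned the direction of *Klhl41* (-0.13 to 0.023), *Klhl30* (-0.18 to 0.37), *Klhl20* (-0.079 to 0.14), *Klhl8* (-0.37 to 0.054), *Klhl2* (-0.11 to 0.0088), *Klhl23* (-0.038 to 0.48), *Klhl26* (-0.029 to 0.077), *Neb* (-0.21 to 0.025) and *Tfdp1* (-0.10 to 0.23). Members under 0.5 FPKM were not tested, and *Klhl34* and *Klhl11* stand for as few as 11 and 22 fragments in a library.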

Other observations

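Further values of known Klhl partners are given here as chosen after their values were seen. They are RNA levels, and a relation to the levels of the Klhl genes was not tested. *Dvl3* and *Sec31a*, known partners of KLHL12, were at 1.79 to 3.36 and 8.95 to 11.6 FPKM in WT and at 4.47 to 5.24 and 13.6 to 15.4 FPKM in KO muscle. The log2 fold changes were 0.85 (limma, adjusted p = 0.0963) for *Dvl3* and 0.47 (limma, adjusted p = 0.0950) for *Sec31a*, and 0.37 and 0.42 after correction for GC content. *Klhl12* itself was at 9.48 to 9.81 FPKM in WT and 7.24 to 7.98 FPKM in KO muscle. *Eif4ebp1*, a translation inhibitor and target of KLHL25, was at 24.0 to 26.2 FPKM in WT and 35.7 to 39.02 FPKM in KO muscle. Its log2 fold change of 0.60 (limma, standard error 0.099, adjusted p = 0.0667) was 0.60 after correction for GC content as well, with *Klhl25* itself at 0.415 to 0.646 FPKM in WT and 0.535 to 0.767 FPKM in KO muscle. *Rapsn*, which clusters acetylcholine receptors and is a target of KLHL8, was at 2.48 to 5.34 FPKM in WT and 7.90 to 8.58 FPKM in KO GAS, for a log2 fold change of 0.99 (limma, adjusted p = 0.0962) and 0.43 after correction for GC content.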
